A study of Mus musculus with 3 samples.

Results

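Genes for the linker and core histones were examined for binding of Tbx4 and Hoxc10, 2 transcription factors of the mouse hindlimb bud, in lists of peak summits from chromatin immunoprecipitation with sequencing (ChIP-seq). The genes were chosen by their symbols, current (H1f, H2ac, H2bc, H3c and H4c followed by a number) or older (Hist1h to Hist4h). The choice of this family was made with earlier results of the same summit lists known, namely its summits within 1 kb and their scores, so the counts and scores below are descriptions without a test. The symbols gave 71 of 21887 protein-coding genes, 67 by the current symbol and 4 by the older name alone (H2aw, H2bu2, H4bc24 and H4f16). A further gene caught by the same letters, H13, encodes a signal peptide peptidase and was left out, and it had no Tbx4 summit. The Tbx4 sample came from wild-type CD1 embryos at stage e11.5, hindlimb tissue, with a homemade antibody (1695a). The Hoxc10 sample came from the same stage, tissue, strain and genotype, with an AbCam antibody (ab153904). Each list stands for 1 sample with no replicate, and a sample made with another Hoxc10 antibody was not analysed here. The Tbx4 list holds 4780 summits and the Hoxc10 list 1614, each with the authors' MACS2 score on a −log10 scale, and the read depth is unknown.

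The clustered histone genes supply the histones that package newly made DNA. They are short and mostly without introns, are transcribed chiefly in S phase, and their transcripts end in a stem-loop in place of a poly(A) tail. Many copies of each class stand side by side, and an H2A and an H2B gene often share 1 promoter region from which they are transcribed in opposite directions. A few genes of the list differ: H1f0 encodes a linker histone of resting and differentiated cells, H1f8 one of the oocyte, and H1f6, H1f7, H2ac1 and H2bc1 encode histones of the testis.

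On the mm10 build the 71 genes comprised 10 of class H1, which encodes linker histones, 18 of H2A, 18 of H2B, 12 of H3 and 13 of H4. With neighbours up to 500 kb apart joined, 23 formed a first cluster on chromosome 13 (21715711 to 22043658), 31 a second on the same chromosome (23531044 to 23934913), 10 a cluster on chromosome 3 (96219885 to 96270192) and 2 a pair on chromosome 11. The other 5 stood alone. Gene lengths ran from 375 to 37455 bp with a median of 496 bp.

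Tbx4 summits were found at 20 of the 71 histone genes, or 28.2%, counting a summit in the gene or within 1 kb of it. The share over all protein-coding genes was 8.92%. Neighbouring histone genes share summits, and the 20 genes had 15 distinct sites, 7 in each chromosome 13 cluster and 1 on chromosome 3. Of the genes, 12 held a summit inside them and 8 had one outside the gene within 1 kb. No Hoxc10 summit lay within 1 kb of any of the 71, where the share over all protein-coding genes was 2.38%. At other genes up to 3 kb long, which are closer in length to the histone genes, that share was 0.180% (6 of 3334), so 0 of 71 is near the share at short genes. For Tbx4 the share at these short genes was 2.04% (68 of 3334). The Hoxc10 summit nearest to any of the 71 histone genes was 80320 bp from H1f0. The one nearest to a Tbx4 site at a histone gene was 701317 bp away.

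The sequences between the gene starts of 4 H2A-H2B pairs with a Tbx4 site are printed first, because these pairs held the 3 highest-scoring of the 15 sites. The bases before the starts of H1f5, the gene with 2 sites of its own, and of H4c12, the H4 gene with a site, follow for comparison. They come from RefSeq (GRCm38.p6, the mm10 build), read 5′ to 3′, and capitals mark every match, on either strand, to the motifs named below.
H2ac8 to H2bc8 (plus strand) at chr13:23571221-23571399: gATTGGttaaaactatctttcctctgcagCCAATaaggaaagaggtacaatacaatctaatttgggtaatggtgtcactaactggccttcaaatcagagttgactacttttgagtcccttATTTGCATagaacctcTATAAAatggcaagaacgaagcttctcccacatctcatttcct
H2ac22 to H2bc22 (plus strand) at chr13:21787249-21787482: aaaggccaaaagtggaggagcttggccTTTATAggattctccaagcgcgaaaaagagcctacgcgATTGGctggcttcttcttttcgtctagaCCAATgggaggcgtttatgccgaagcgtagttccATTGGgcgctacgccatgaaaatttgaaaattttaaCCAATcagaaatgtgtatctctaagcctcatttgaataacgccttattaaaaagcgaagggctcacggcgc
H2bc7 to H2ac7 (plus strand) at chr13:23574208-23574380: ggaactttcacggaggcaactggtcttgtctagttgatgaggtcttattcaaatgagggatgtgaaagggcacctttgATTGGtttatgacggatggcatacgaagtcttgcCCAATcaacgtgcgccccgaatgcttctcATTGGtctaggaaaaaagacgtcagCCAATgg
H2ac11 to H2bc11 (plus strand) at chr13:22042950-22043197: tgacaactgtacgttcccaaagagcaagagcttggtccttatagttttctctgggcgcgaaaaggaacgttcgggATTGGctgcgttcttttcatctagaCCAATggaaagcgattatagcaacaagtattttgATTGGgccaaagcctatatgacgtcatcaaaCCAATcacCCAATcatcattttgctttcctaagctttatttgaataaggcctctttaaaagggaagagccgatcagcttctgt
H1f5 (minus strand) at chr13:21780626-21780875: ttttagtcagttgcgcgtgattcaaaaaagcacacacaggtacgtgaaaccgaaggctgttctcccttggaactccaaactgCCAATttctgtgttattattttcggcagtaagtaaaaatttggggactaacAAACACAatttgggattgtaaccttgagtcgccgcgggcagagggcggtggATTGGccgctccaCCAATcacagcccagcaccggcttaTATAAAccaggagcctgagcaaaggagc
H4c12 (minus strand) at chr13:21750554-21750803: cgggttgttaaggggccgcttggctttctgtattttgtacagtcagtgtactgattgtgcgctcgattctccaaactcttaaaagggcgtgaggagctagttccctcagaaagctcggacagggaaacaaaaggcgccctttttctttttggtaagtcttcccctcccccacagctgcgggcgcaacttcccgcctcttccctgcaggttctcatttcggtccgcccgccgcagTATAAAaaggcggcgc

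The motifs searched, on both strands, were CCAAT (the CCAAT box), TATAAA (the TATA box), ATTTGCAT (the octamer known from H2B promoters), AAACACA (the AC box known from H1 promoters), GGTGTGA (core letters of T-box sites), and TTTATGG and TTTACGA (letters bound by posterior Hox proteins). A match is a string of letters, not a bound site. RefSeq had a promoter record, from 250 bases before to 50 after the start, for 66 of the 71 genes. The shares below are of these genes, and the shares over all genes are of 32851 promoter records of the same length. CCAAT was present in all 18 H2A, all 16 H2B and all 10 H3 promoters, in 7 of 10 H1 and 3 of 12 H4 promoters, and in 37.4% of all records. The octamer was present in 7 of 18 H2A and 7 of 16 H2B promoters, in none of the other classes, and in 1.74% of all records. Neighbouring H2A and H2B genes of a pair lie 163 to 280 bp apart, so their windows overlap. A match between them can count for both genes, and the H2A and H2B counts are not independent. TATAAA was present in 35 of the 66 histone promoters and in 13.6% of all records. AAACACA was present in 5 of 10 H1, 2 of 18 H2A and 2 of 16 H2B promoters, and in 7.18% of all records. The H2ac8-H2bc8 stretch printed above holds 1 octamer, 2 CCAAT matches and 1 TATAAA.

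The T-box letters GGTGTGA were in none of the 19 promoters of genes with a Tbx4 site that had a record, and in 1 of the 47 promoters of genes without one, that of H1f7. Over all records the share was 3.98%, and 19 promoters are too few to be told apart from it. The same split for CCAAT was 18 of 19 and 36 of 47, and for TATAAA 14 of 19 and 21 of 47. For the octamer it was 7 of 19 and 7 of 47, and for AAACACA 4 of 19 and 5 of 47. Genes with and without a site differ in class, and these differences were not tested. TTTATGG was in 2 histone promoters, those of H4c2 and H4f16, and TTTACGA in none, against 2.75% and 0.597% of all records. None of the 15 summits lay inside one of these promoter windows, so the letters under the summits themselves were not examined.

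With a summit counted for every gene within 1 kb, 9 of 18 H2B genes had a Tbx4 site, 7 of 18 H2A genes, 3 of 10 H1 genes and 1 of 13 H4 genes. None of the 12 H3 genes had one. The share was 8.92% over all protein-coding genes and 2.04% at other genes up to 3 kb long. With 12 H3 and 13 H4 genes, their counts are too small to be told apart from these shares. Gene length differs between the classes. Among the H2B genes with a site, H2bc6 (37455 bp), H2bc22 (14079 bp), H2bc4 (8282 bp) and H2bc23 (3788 bp) were over 3 kb long. The H2B gene H4bc24 (3788 bp) was too and had no site, while the longest H2A gene was 596 bp. Neighbours share a summit in this count. H2bc22, H2bc11 and H2bc7 count through summits inside their H2A partners. Likewise H2ac8 and H2ac6 count through summits inside their H2B partners, and H2ac20 through that inside H2ac21. With each of the 15 sites given once to its nearest gene, 6 fell to the 18 H2B genes, 4 to the 18 H2A genes, 4 to the 10 H1 genes and 1 to the 13 H4 genes. The place of H1 relative to H2A and H2B thus depends on whether genes or sites are counted. Of the 4 H1 sites, 2 lay in the same gene, H1f5. The H3 gene closest to a site was H3c4, 1073 bp from the summit inside H2ac7, which was also the closest of all histone genes without a site. The next was the H2B gene H2bc21, at 1122 bp, and the farthest gene counted as bound was H2bc11, at 493 bp. Between 493 and 1073 bp there was no histone gene, so any limit between these distances gives the same genes.

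**Figure D1:**
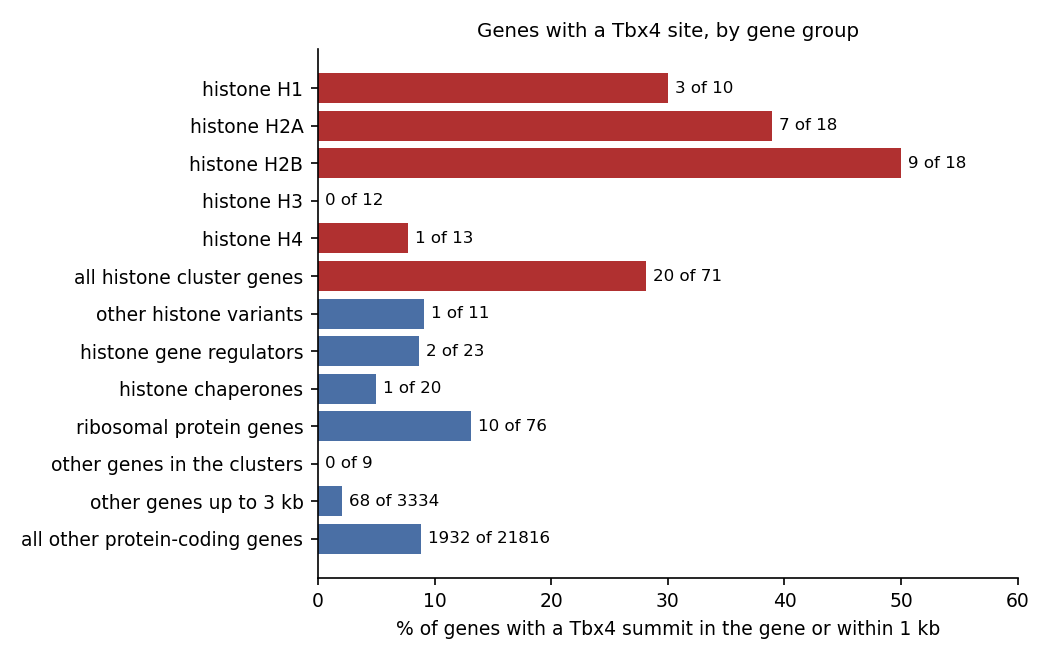
Percent of genes with a Tbx4 summit in the gene or within 1 kb (x axis), for each histone class and for other groups of genes (y axis), with the number of genes beside each bar. The H2B genes reach 50%, the H3 genes 0%, and all other protein-coding genes 8.86%.

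The site with the highest score lay in the second chromosome 13 cluster, inside H2bc8 (older name Hist1h2bg), which encodes H2B. Its summit at 23571639 scored 8.12 and was 239 bp downstream of the start of H2bc8 and 419 bp from H2ac8 (Hist1h2ae), the H2A gene on the other side of the promoter printed first. It ranked 880th, with ties, among the 4780 Tbx4 sites, and 78.2% of the list scored lower. Close by, the summit at 23574690 scored 6.19 and lay inside the H2A gene H2ac7 (Hist1h2ad), 309 bp from its start and 483 bp from the H2B gene H2bc7 (Hist1h2bf). In the first cluster the summit at 21787142 scored 6.19 too. It lay inside the H2A gene H2ac22 (Hist1h2an), 106 bp from the start, with the H2B gene H2bc22 (Hist1h2bp) 341 bp away. These 3 sites are thus in 3 divergent H2A-H2B pairs, with the summit in 1 gene of each pair and not between the genes.

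Scores of 5.3 were given to 3 sites. The first, at 21722275, was inside the H2B gene H2bc14 (Hist1h2bm), 231 bp from its start. The second, at 22042705, was inside the H2A gene H2ac11 (Hist1h2ag), 244 bp from the start and 493 bp from its H2B partner H2bc11 (Hist1h2bj). The third, at 23621622, lay outside genes, 155 bp beyond the end of the linker histone gene H1f4 (Hist1h1e) and 498 bp from H2bc6 (Hist1h2be). H2bc6 is recorded with 2 starts and a length of 37455 bp, and it had a second site at 23585842 with a score of 4.46, 128 bp downstream of the nearer start. A score of 4.46 was also found at 23684398, inside the H2B gene H2bc4 (Hist1h2bc) and 439 bp from the H2A gene H2ac6 (Hist1h2ac). The linker histone gene H1f3 (Hist1h1d) had a summit of 3.67 at 23555244, 212 bp from its start.

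The lowest scores, 2.94 and 2.26, were given to 6 sites. Those at 2.94 were in the H4 gene H4c12 (Hist1h4k) at 21750240, 313 bp from the start, in the linker histone gene H1f5 (Hist1h1b) at 21780444, 181 bp from the start, and in the H2B gene H2bc23 (Hist1h2bq) at 21809127, 1072 bp from the start. H1f5 had a second summit of 2.26 at 21779962, further into the gene at 663 bp. The summit at 23747308, also 2.26, was 85 bp beyond the end of the H2B gene H2bc3 (Hist1h2bb). The chromosome 3 site, at 96219950 with a score of 2.26, was inside the H2A gene H2ac21 (Hist2h2ab), 65 bp from its start and 463 bp from H2ac20 (Hist2h2ac). It was the single Tbx4 site among the 17 histone genes outside chromosome 13.

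Copies of histone genes can be so alike that a short read cannot be given to 1 of them, and neither the labels nor the file say how such reads were treated. The promoter of H2bc23 was identical to that of H4bc24 (older name Hist1h2br, an H2B gene), which had no site, so the site of H2bc23 is uncertain between these copies. The promoters of H4c17 and H4c18 were 99% identical, and neither gene had a site. For no other histone gene with a record did the promoter reach 95% identity with another of the family. The coding parts, where most summits lay, were not compared.

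**Figure D2:**
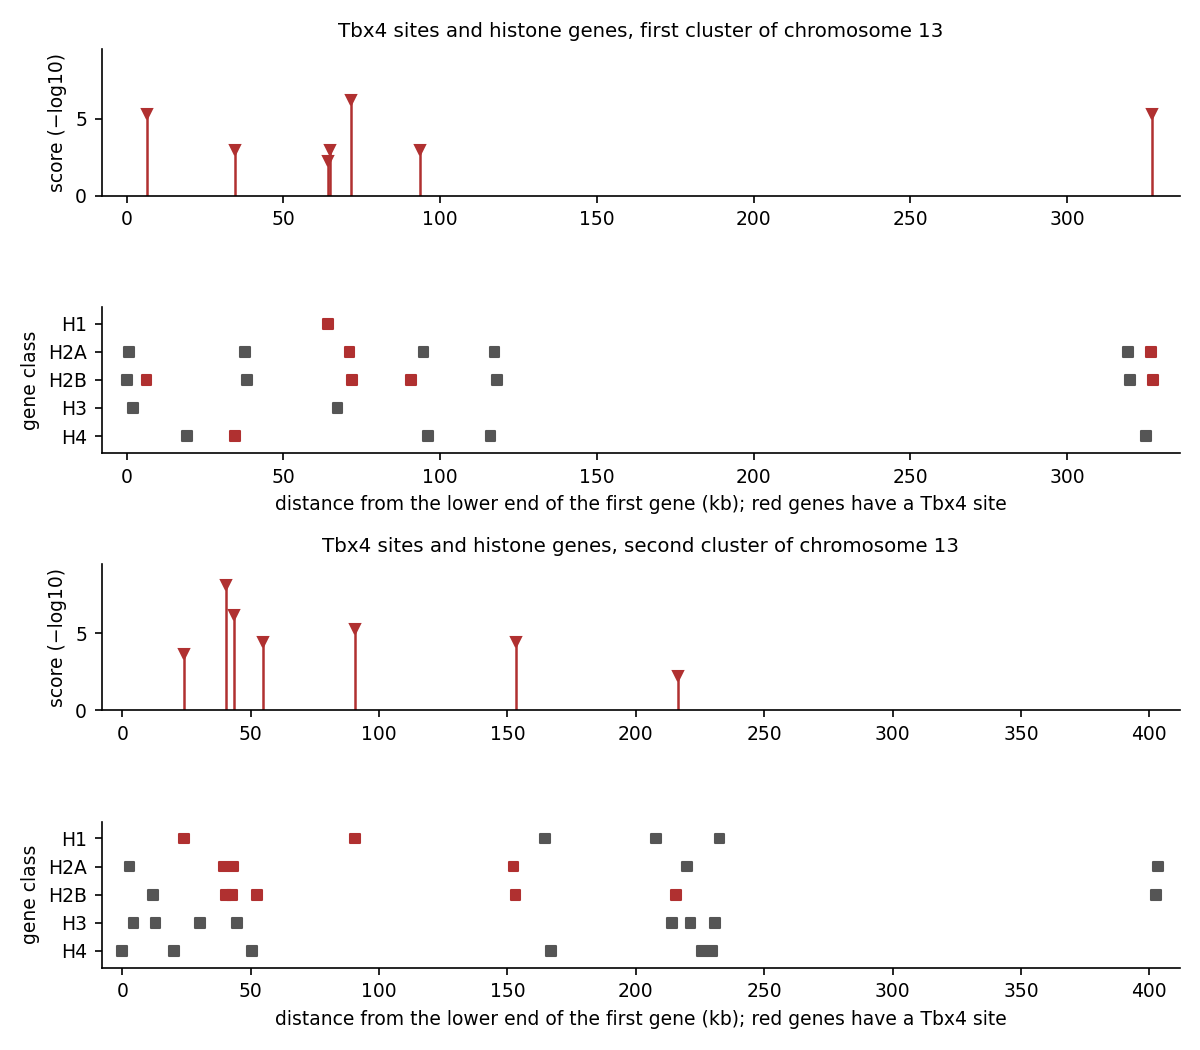
Tbx4 sites and histone genes along the 2 clusters of chromosome 13. For each cluster the upper panel gives the score of each site (y axis, −log10 scale) and the lower panel the genes by class, against the distance from the lower end of the first gene in kb, with genes that have a site in red. The 14 sites score from 2.26 to 8.12, and no H3 gene is red.

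Tbx4 summits at histone genes lay mostly inside the genes, and none lay in a recorded promoter window of a histone gene. Of the 15 sites, 13 (86.7%) were inside a histone gene, compared with 59.1% (355 of 601) of the other Tbx4 sites within 1 kb of a protein-coding gene end being inside a gene. At other genes up to 3 kb long the share was 51.4% (36 of 70). Counted among the 13 are the sites at 23585842 in H2bc6 and at 21809127 in H2bc23. Both lay over 1 kb from a gene end, unlike the 601 compared sites. For the 14 sites whose nearest histone gene had a recorded start, the summit was downstream of that start in every case, at 65 to 1072 bp with a median of 241.5 bp. Measured to the nearest start of any protein-coding gene, as for the other sites, 14 sites were within 1 kb and 12 of them (85.7%) were downstream, compared with 50.6% of the other 437 Tbx4 sites within 1 kb of a start. The other two, beside H1f4 and inside H2bc4, were upstream of a start of H2bc6 and of the start of H2ac6, at -528 and -439 bp. From 51 to 500 bp downstream lay 10 of the 14 (71.4%). Of the other 437 sites, 30.7% lay there, and 44.9% lay from 250 bp before to 49 bp after the start, where no histone site was found. For the 41 of these 437 whose nearest start belonged to a gene up to 3 kb long, both shares were 36.6%, and 56.1% were downstream. With a median length of 496 bp, most histone genes end near the far side of the 51 to 500 bp range.

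**Figure D3:**
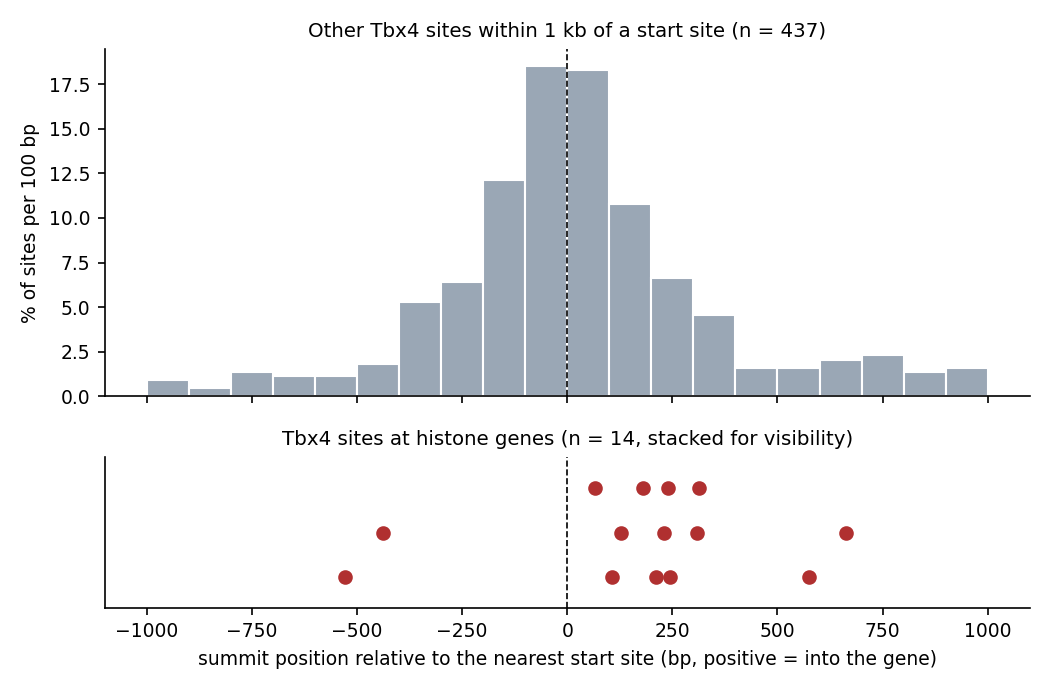
Position of Tbx4 summits relative to the nearest start of a protein-coding gene (x axis, bp, positive into the gene). The upper panel gives the other 437 sites in percent per 100 bp and the lower panel the 14 sites at histone genes as points. The points gather between 65 and 313 bp downstream, where 10 of the 14 lie, while the other sites peak around the start.

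The scores of the histone sites were near the middle of the Tbx4 list, and their median was equal to the upper quartile of the other gene-end sites. Their median was 4.46 (quartiles 2.94 and 5.3, n = 15), compared with 2.94 (2.26 and 4.46, n = 601) for other sites within 1 kb of a gene end and 3.67 (2.94 and 7.14, n = 4765) for all other Tbx4 sites. This depended on 1 cluster, since without the second cluster of chromosome 13 the median of the other 8 histone sites was 2.94. Of the histone sites 6 (40%) scored above 4.46, compared with 23.5% of the other gene-end sites and 39.4% of all other sites. The highest histone score was 8.12, and 8.49% of the other gene-end sites and 18.4% of all other sites scored above it. The 15 histone sites took only 7 different score values, and 3387 of the 4780 sites in the list share these values.

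**Figure D4:**
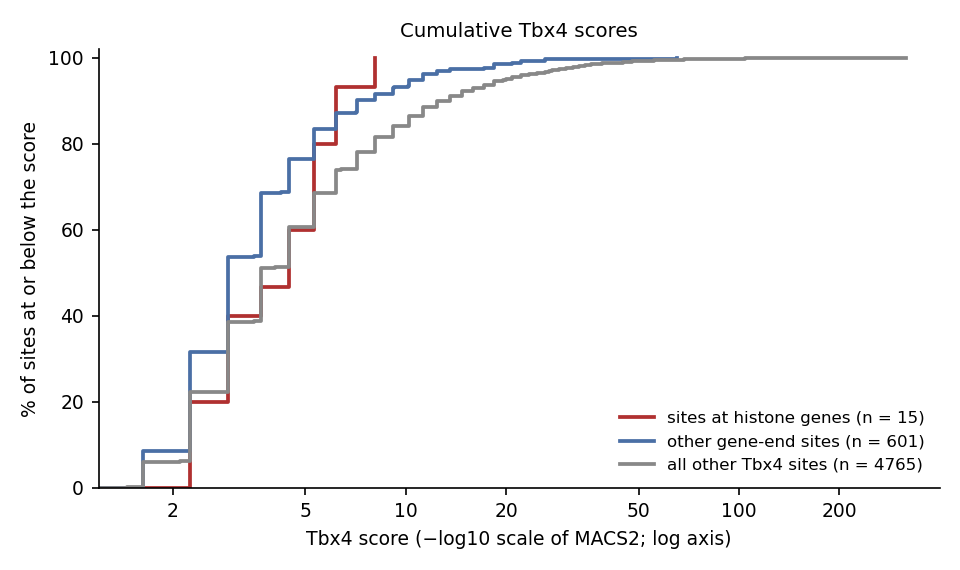
Cumulative percent of Tbx4 sites (y axis) at or below a score (x axis, log axis) for the 15 sites at histone genes, the other 601 gene-end sites and all other 4765 sites. The histone curve is to the right of the other gene-end curve below a score of 5 and reaches 100% at 8.12, where the other curves continue.

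Pairing of H2A and H2B genes was looked at separately, since a pair offers 1 promoter region and 2 genes to a site. There were 12 pairs with up to 500 bp between the genes, and 7 of them had a Tbx4 site within 1 kb of either gene. In 6 of the 7 the summit was inside a gene of the pair, the H2A gene in 3 and the H2B gene in 3. In the seventh, H2ac20-H2bc21, the site was that inside the neighbouring H2ac21. Of the 12 H2A and H2B genes outside such pairs, 4 had a site (H2bc14, H2bc6, H2bc3 and H2ac21). The count of pairs and the count of single genes differ in unit, and the site inside H2ac21 is in both. They are thus not a comparison of paired with unpaired genes. Counted by gene, 16 of all 36 H2A and H2B genes had a site, where the share over all protein-coding genes was 8.92%. The pairs without a site were H2bc13-H2ac13, H2ac15-H2bc15, H2ac24-H4bc24, H2ac12-H2bc12 and the testis pair H2bc1-H2ac1.

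Sites were also counted per length of window. The histone genes with 1 kb to each side covered 212.0 kb and held 70.8 Tbx4 sites per Mb. The same windows of all other protein-coding genes held 2.30 per Mb, those of other genes up to 3 kb long 6.25 and those of 76 cytosolic ribosomal protein genes, another highly expressed family, 25.9. With windows only at gene ends the values were 86.5 per Mb for the histone genes, 7.60 for all other genes, 6.30 for other short genes and 37.0 for ribosomal protein genes. Of the ribosomal protein genes 10 of 76 had a site, with a median score of 2.94. The other 9 protein-coding genes inside the histone clusters had none. The share over all protein-coding genes was 8.92%, and 9 genes are too few to be told apart from it.

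Genes that work with the clustered histone genes had Tbx4 sites at 9.09%, 8.70% and 5% of the members of 3 lists, near or below the 8.92% of all protein-coding genes. Of 11 genes for other histone variants 1 had a Tbx4 site, H3f3b, which encodes the replication-independent H3.3 (score 6.19). Of 23 factors that regulate histone genes or process their transcripts 2 had sites: Zfp143, a zinc finger factor, with 2 (higher score 7.14), and Nfyc, a subunit of the factor that binds CCAAT boxes, with 1 of 27.52, above any score at the histone genes. Npat, the coactivator of the histone gene clusters, and Slbp, which binds the stem-loop, had none. Of 20 histone chaperone genes 1 had a site, Nap1l1 (4.46). No Hoxc10 summit lay at any gene of these 3 lists or at the ribosomal protein genes. The Hoxc10 share over all protein-coding genes was 2.38%, and each of these groups is too small to be told apart from it.

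The numbers in the peak names bear on the genes without a site. MACS2 numbers peaks in order of position, which the file follows on every chromosome, and the highest number is 45103, so that 10.6% of the numbers are listed. Numbers were counted from the first to the last site within each chromosome 13 cluster. The 2 clusters together had 30 numbers, 14 of them listed and 16 not. Further unlisted numbers lay before and after these sites. Of the 51 histone genes without a site, 4 lay between summits with consecutive numbers, so that no further numbered peak lay at H3c11, H3c4, H4c11 or H4c4. For the other 47, including 10 of the 12 H3 genes, at least 1 unlisted number fell in the same interval between listed summits, which spanned 16.4 to 1603 kb. Whether an unlisted peak was at the gene cannot be told from the file, and no source used here gives the reason why peaks were left out of it.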

How the data were processed

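Tbx4 and Hoxc10 binding in the mouse hindlimb bud was measured by ChIP-seq, 1 sample per antibody and no replicates. Bowtie2 2.2.6, MACS2 2.1.1.20160309 and HOMER were used on mm10, per the submitters' processing notes. The deposited files list 1 bp summits with the authors' MACS2 score on a −log10 scale (of a p-value or a q-value, not stated). No source used here gives the control library, the selection of the listed summits or the read depth. Scores were compared only within the Tbx4 list.

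Genes came from the RefSeq table of GRCm38 (21887 protein-coding genes outside the mitochondrial genome), and start sites and promoters from RefSeq promoter records. A gene counted as bound when a summit lay in it or within 1 kb, and a summit near several genes counted once. The members, lists and comparisons were chosen with earlier results of these data known, so no test was run. All sites are named with their nearest histone gene, and comparison genes where they had a summit. Counting used Python 3.11.15 with pandas 2.3.3, and was checked on simulated summits. Alternatives were windows of 500 bp, 2 kb and 5 kb, gene ends or starts only, higher-scoring sites only, merged summits, and leaving out the largest cluster. Restricting the genes to those up to 3 kb long, or to those without a near-identical promoter, was added after seeing the data.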

Additional observations from a re-analysis of the deposited data

How the results depend on the processing

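With 5 kb windows 33 histone genes had a Tbx4 site, against 20 with 1 kb, while the sites stayed 15; the share over all protein-coding genes was 10.8% there. Among sites at or above the median score of the list, 3.67 (61.3% of the list, because of ties), 9 sites at 14 histone genes were left, against 5.51% of all protein-coding genes. Without the second cluster of chromosome 13, which has the most members, there were 8 sites at 10 histone genes. The median score there was 2.94 against 4.46 with it, equal to that of the other gene-end sites. The other settings, including 14 sites after merging summits within 500 bp, 16 genes among those up to 3 kb long and 14 sites at 19 genes without the near-identical promoters, moved the counts by less than 1.5 times. The count of histone genes with a Hoxc10 summit, and of shared sites, was 0 in every setting run, up to 5 kb and up to 500 bp. Unknown depth and 1 sample per factor limit what these counts can resolve. No paired analysis was possible because each group is 1 sample.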

Other observations

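Between the 2 histone clusters of chromosome 13 lies a stretch of 1485 kb with 41 protein-coding genes, 36 of them vomeronasal receptor genes (Vmn1r), which are expressed in sensory neurons of the nose. It held 2 Tbx4 sites, with scores of 7.14 and 17.15, and none of the 41 genes had a summit in it or within 1 kb. That share was 8.92% over all protein-coding genes and 2.04% at other genes up to 3 kb long, and the difference was not tested. The testis histone genes H2ac1 and H2bc1, at the far end of the second cluster, were over 100 kb from the nearest Tbx4 summit, at 132954 and 133711 bp, and the 5 histone genes outside the clusters, H1f0, H1f7, H1f8, H1f10 and H4f16, were 47032 bp or more from one.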
